A study of Homo sapiens with 6 samples.

Results

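The 10 genes described here are the angiogenic growth factors VEGFA, VEGFB, VEGFC and PGF, the VEGF receptors FLT1, KDR and FLT4, the angiopoietins ANGPT1 and ANGPT2, and ESM1. They were taken by symbol from a table of 17039 genes, and all 10 were found in it. The sequenced poly(A) RNA came from MDA-MB-231 cells, a human triple-negative breast cancer line from ATCC, here also called the parental line, and from 231-BR cells, a variant of it selected for metastasis to the brain and received as a gift from the laboratory that holds it. There were 3 libraries of each line, and the expression of a gene was given as FPKM, a count of fragments scaled for the length of the gene and the size of the library. Both lines were grown as untreated cultures in DMEM with serum and penicillin-streptomycin, and the medium of 231-BR cells alone also held G418 at 200 µg/mL, so that the line and the antibiotic cannot be told apart. Each line is 1 cell population, and the sources do not say whether its 3 parallel replicates came from separate cultures, so p-values measure the spread between these libraries, which may be technical. In the labels, the number inside the cell line name rises by 1 from each sample to the next, and the sample titles were used to assign the line.

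VEGFA is the main growth factor for blood vessel endothelium and acts mostly through KDR (VEGFR-2), while FLT1 (VEGFR-1) binds VEGFA, VEGFB and PGF with little signalling of its own and can act as a decoy. VEGFC acts on lymphatic endothelium through FLT4 (VEGFR-3). ANGPT1 activates the endothelial receptor TEK (Tie2) and stabilises vessels, and ANGPT2 acts at the same receptor, mostly as an antagonist. ESM1 encodes endocan, a small proteoglycan secreted by endothelial tip cells and induced there by VEGFA, and many tumor cells secrete VEGFA to draw vessels toward them.

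The summed FPKM of a library ranged from 465020 to 472007 in 231-BR cells and from 486937 to 496420 in the parental line, and no read counts were used, so the depth is unknown. VIM, a mesenchymal filament gene, was high in both lines, at 2550 ± 14.8 FPKM in 231-BR cells and 2310 ± 28.7 FPKM in the parental line (SD, n = 3), and the epithelial cadherin CDH1 was between 0 and 0.03 FPKM in every library. EPCAM, another epithelial gene, was not absent, at 8.7 ± 0.534 and 5.06 ± 0.552 FPKM (SD, n = 3). CD44 was high, at 181 ± 3.95 and 251 ± 2.67 FPKM in the same order. Of the receptor genes behind the triple-negative label, ESR1 was at 0.927 ± 0.133 and 0.79 ± 0.0458 FPKM and PGR at 0.06 ± 0.01 and 0.0267 ± 0.00577 FPKM. ERBB2 was not absent, at 9.88 ± 0.316 FPKM in 231-BR cells and 4.95 ± 0.176 FPKM in the parental line (SD, n = 3, log2 fold change 0.98, limma adjusted p = 4e-08). Of 12 endothelial markers in the table, 4 were at 1 FPKM or more in each of the 6 libraries, namely TIE1, ROBO4, ESAM and EGFL7. The summed level of the 12 markers was 123 to 126 FPKM in 231-BR cells and 145 to 149 FPKM in the parental line. Of the other markers, CDH5, VWF, ERG, EMCN and TEK were between 0 and 0.03 FPKM in every library, and CLDN5 was at most 0.1 FPKM. PECAM1 was low but higher in 231-BR cells, at 0.37, 0.41 and 0.48 FPKM beside 0.19, 0.21 and 0.15 FPKM (limma adjusted p = 0.00066). PLVAP was at 0.21, 0.28 and 0.23 FPKM in 231-BR cells, where the parental line was listed at 0 (limma adjusted p = 1.6e-05). Only genes with a mean of 0.1 FPKM over the 6 libraries were tested. PLVAP reached that level through 231-BR cells alone, which fixed its sign, so its p-value is not support for the direction. The part of other cell types in the results was not tested.

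ESM1 was much higher and VEGFA much lower in 231-BR cells than in MDA-MB-231 cells. VEGFC was also lower, KDR, FLT1 and ANGPT1 were higher from low levels, VEGFB and PGF did not pass the test, and FLT4 and ANGPT2 were near 0 in both lines. Of the 8 genes that passed the filter of a mean of 0.1 FPKM over the 6 libraries, 6 had an adjusted p under 0.05 by limma (Benjamini-Hochberg over 13465 genes), 4 higher and 2 lower in 231-BR cells. Among all genes tested, 77.3% passed the same test, 44.4% higher and 32.9% lower, so that passing it is the common case between these lines and the count of 6 sets these genes apart in no way. FLT1 and ANGPT1 reached the filter through 231-BR cells alone. The 8 genes, FLT1 and ANGPT1 included, had a median log2 fold change of 0.65, without them it was -0.1, and over all genes tested it was 0.08, so that the median has no stable direction. For the same 6 genes the 231-BR and MDA-MB-231 libraries did not overlap, beside 78.4% of all genes tested. Differentially expressed genes (DEGs) here also had to differ by more than 1 on the log2 scale and to reach a mean of 1 FPKM in both lines. ESM1, higher, and VEGFA, lower, met these criteria, beside 6.45% of all genes tested (4.68% higher and 1.77% lower). Both were among the genes the study picked from these same libraries, so that their direction is not independent evidence.

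**Figure D1:**
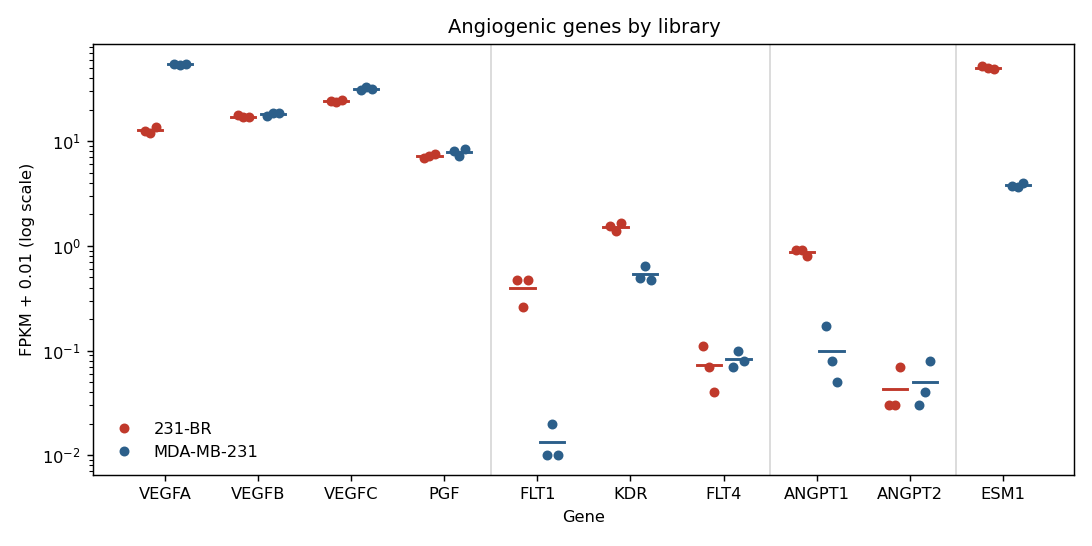
FPKM + 0.01 of the 10 genes on a log axis, with a point for each library (3 of 231-BR in red, 3 of MDA-MB-231 in blue) and a line at the mean of each cell line; vertical lines part the ligands, receptors, angiopoietins and ESM1. The ESM1 points stand near 50 FPKM in 231-BR cells against about 4 FPKM in MDA-MB-231 cells, and the VEGFA points stand apart in the other direction.

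**Figure D2:**
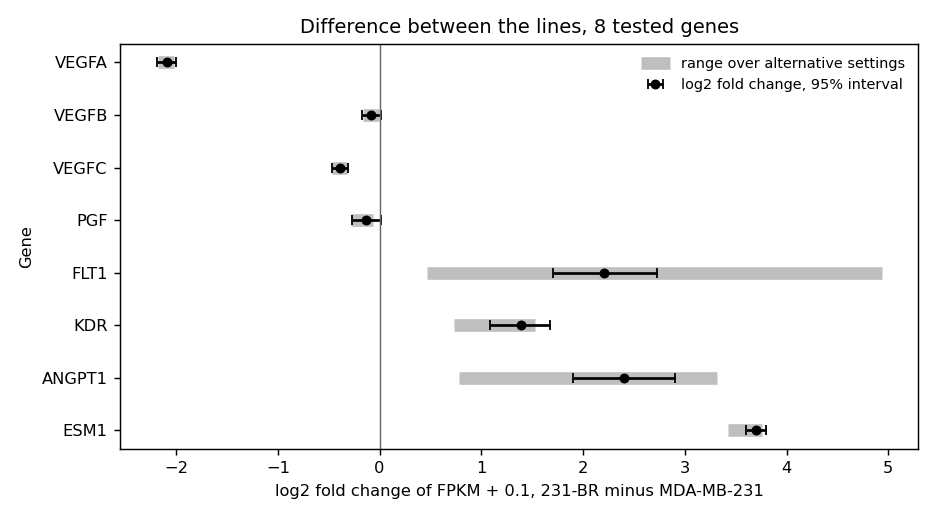
Log2 fold change of FPKM + 0.1 (231-BR minus MDA-MB-231) of the 8 genes tested, where points are limma estimates, black bars are 95% intervals and grey bars are the range over alternative settings. The grey range is narrow for ESM1 (3.42 to 3.76) and VEGFA (-2.18 to -2.02) and wide for FLT1 (0.47 to 4.94), whose levels are low.

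ESM1 (gene ID 11082) had the largest log2 fold change of the 8 tested among the 10 genes described here, with a pseudocount of 0.1. With 0.01 that of FLT1 was larger (4.94, beside 3.73 for ESM1). The level of ESM1 was 52.09, 49.82 and 49.05 FPKM in the 231-BR libraries and 3.73, 3.65 and 3.99 FPKM in the MDA-MB-231 libraries. All 3 libraries of 231-BR cells were far above all 3 of MDA-MB-231 cells, and the libraries within a line were close together. The means were 50.3 ± 1.58 and 3.79 ± 0.178 FPKM (SD, n = 3), a 13.3-fold difference with a log2 fold change of 3.70 (SE 0.0439, 95% interval 3.6 to 3.8, limma adjusted p = 4.6e-12). In a bulk library, a change in the share of cells that express a gene and a change in the RNA per cell cannot be told apart. Counting ESM1 itself, 129 of the 13465 genes tested (0.958%) had a log2 fold change at least as high, and 1.27% of the genes tested differed at least as far in either direction. Ranked by mean FPKM among the 17039 genes, ESM1 moved from place 8714 in MDA-MB-231 cells to place 1654 in 231-BR cells.

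ESM1 lies on the minus strand of chromosome 5 at chr5:54977864-55022671 in GENCODE release 29 (GRCh38), which gives it 4 transcripts, 3 of them coding. A transcript of AC034238.1 overlaps it on the same strand, and reads from the shared stretch cannot be assigned to either gene without the counting rules, which are not given in the sources used here. The 250 bases before its RefSeq start (GRCh38.p14, chr5:54985594-54985843, minus strand) are shown because they are the proximal promoter of the gene with the highest level of the 10 in 231-BR cells. Capitals mark matches to the motifs searched, on either strand: TATAAA (the box found near many start sites), ACGTG or else GCGTG (the core of a hypoxia response element), TGACGTCA (a cyclic AMP response element) and GGGCGG (a GC box).
ESM1 promoter: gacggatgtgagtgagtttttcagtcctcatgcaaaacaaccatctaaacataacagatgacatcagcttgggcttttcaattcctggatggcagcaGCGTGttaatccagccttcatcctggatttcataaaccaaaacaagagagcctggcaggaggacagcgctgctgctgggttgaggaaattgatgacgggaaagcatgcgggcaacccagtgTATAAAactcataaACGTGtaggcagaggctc
The TATAAA match begins 32 bases before the start, the ACGTG match 18 bases before it and the GCGTG match 153 bases before it, with no overlap among them. Of 35116 RefSeq promoters of the same length, 10.7% hold TATAAA, 18.5% hold ACGTG and 32.2% hold GCGTG, so that none of these matches is rare. The GC content of the window is 47.6%, against a median of 58.0% over all promoters, and 27.1% of them are lower. A match describes these letters and does not show that a factor binds there.

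The study designed primers and shRNAs for ESM1, and their sequences are shown because they mark which part of the transcript each can report on. The capitals in the reverse primer mark the bases that lie across the exon junction.
ESM1 forward primer: cagggggacgggaaaatgc
ESM1 reverse primer: cagatgccatgtcatgctCC
ESM1 shRNA 1 target: cccgtaatgaggaaatggtta
ESM1 shRNA 2 target: ctgaggtgtcagccttctaat
ESM1 shRNA 3 target: gcaataattatgcggtggact
On the principal transcript, which has 3 exons, the forward primer lies in exon 2 (chr5:54982061-54982079), and the reverse primer has 18 bases in exon 3 (chr5:54979418-54979435) and 2 bases in exon 2 (chr5:54981997-54981998). The target of shRNA 1 lies in exon 3 (chr5:54979344-54979364), and those of shRNA 2 (chr5:54985257-54985277) and shRNA 3 (chr5:54985436-54985456) lie in exon 1. All 5 are within the coding sequence. The reverse primer needs the junction of exons 2 and 3, while the FPKM of ESM1 is 1 value over its transcripts. Effects of the shRNAs were not analysed here.

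The VEGF ligands changed unequally, with VEGFA falling most. VEGFA (gene ID 7422, chr6:43770184-43786487, plus strand) stood at 12.45, 12.05 and 13.58 FPKM in the 231-BR libraries and at 54.89, 53.21 and 55.2 FPKM in the MDA-MB-231 libraries. Every 231-BR library was below every MDA-MB-231 library. The means of 12.7 ± 0.793 and 54.4 ± 1.07 FPKM (SD, n = 3) gave a 4.29-fold lower level in 231-BR cells, with a log2 fold change of -2.09 (SE 0.0437, 95% interval -2.19 to -2.0, limma adjusted p = 9.3e-11). Counting VEGFA itself, 157 genes (1.17% of those tested) fell at least as far. VEGFA went from place 1527 to place 5565 in the order of all genes by mean FPKM.

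VEGFC (gene ID 7424, chr4:176683538-176792727, minus strand), the lymphatic growth factor, was at 24.1, 23.54 and 24.56 FPKM in 231-BR cells and at 30.6, 32.74 and 31.34 FPKM in MDA-MB-231 cells. The lines did not overlap, but the step between them was small. The means were 24.1 ± 0.511 and 31.6 ± 1.09 FPKM (SD, n = 3), and VEGFC was 1.31-fold lower, with a log2 fold change of -0.39 (SE 0.034, 95% interval -0.47 to -0.31, limma adjusted p = 2.4e-06). With that, VEGFC rather than VEGFA had the highest level of the 4 ligands in 231-BR cells.

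VEGFB (gene ID 7423, chr11:64234538-64238793, plus strand), which binds FLT1 among the VEGF receptors, was at 17.73, 16.97 and 16.9 FPKM in 231-BR cells and at 17.44, 18.41 and 18.73 FPKM in MDA-MB-231 cells. PGF (gene ID 5228, chr14:74941834-74955784, minus strand), also a ligand of FLT1, was at 6.87, 7.19 and 7.54 FPKM in 231-BR cells and at 8.05, 7.29 and 8.34 FPKM in MDA-MB-231 cells. In both genes the ranges of the lines overlapped. The log2 fold change of VEGFB was -0.08 (SE 0.0387, 95% interval -0.17 to 0.01, limma adjusted p = 0.082) and that of PGF was -0.13 (SE 0.0606, 95% interval -0.27 to 0.01, limma adjusted p = 0.075). Both calls turn on the scaling and on single libraries. With median-of-ratios scaling, VEGFB was at -0.16 (adjusted p = 0.0036) and PGF at -0.21 (adjusted p = 0.0089), and with quantile normalization they were at -0.16 (adjusted p = 0.0045) and -0.28 (adjusted p = 0.0024), both lower in 231-BR cells. Without MDA-MB-231 replicate 1, VEGFB was at -0.11 (adjusted p = 0.025), and without MDA-MB-231 replicate 2, PGF was at -0.19 (adjusted p = 0.018). Quantile normalization moved the median of all genes from 0.08 to -0.06, and the share of higher genes among those called from 57.4% to 45.6%, while median-of-ratios scaling moved that share to 50.3%.

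**Figure D3:**
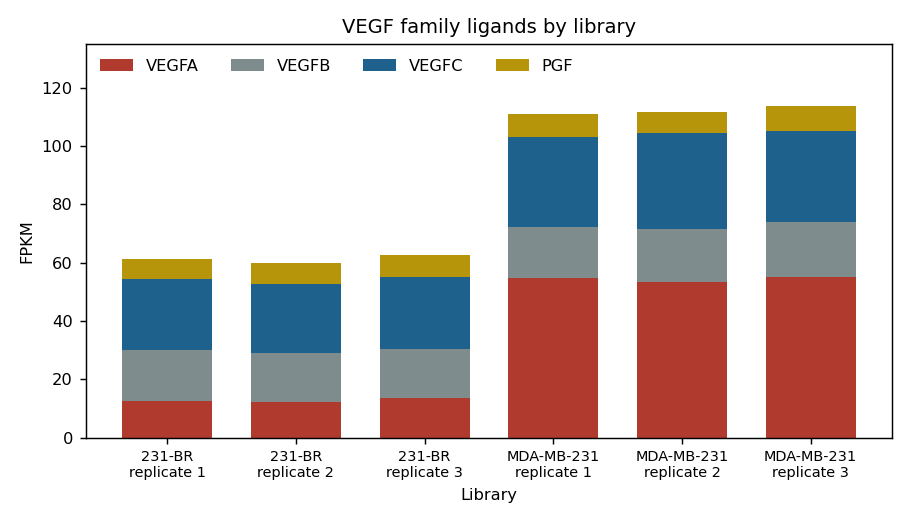
FPKM of the 4 VEGF family ligands in each of the 6 libraries, stacked on a linear axis that starts at 0, with 1 bar for each library. The bars reach 59.75 to 62.58 FPKM in 231-BR cells and 111.0 to 113.6 FPKM in the parental line, and the VEGFA segment accounts for most of the gap.

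Summed over the 4 ligands, the level was 61.15, 59.75 and 62.58 FPKM in 231-BR cells and 111.0, 111.7 and 113.6 FPKM in MDA-MB-231 cells. VEGFA made up 20.4%, 20.2% and 21.7% of that sum in 231-BR cells and 49.5%, 47.7% and 48.6% in MDA-MB-231 cells. VEGFC made up 39.2% to 39.4% in 231-BR cells and 27.6% to 29.3% in the parental line, so that the leading ligand differed between the lines. The mean VEGFA share was 20.7% ± 0.835 against 48.6% ± 0.901 (SD, n = 3, exact two-sided permutation test p = 0.1, the smallest that 3 against 3 libraries can give). The log2 ratio of VEGFC to VEGFA was 0.95, 0.97 and 0.85 in 231-BR cells and -0.84, -0.7 and -0.82 in MDA-MB-231 cells, changing sign between the lines in every library. The mean difference of that ratio was 1.71 on the log2 scale (exact two-sided permutation test, n = 3 per line, p = 0.1, the smallest possible). These shares and ratios compare levels per length within a library, and a scaling of the whole library leaves them as they are.

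The receptors were low in these tumor cells and 2 of the 3 were higher in 231-BR cells. KDR (gene ID 3791, chr4:55078259-55125595, minus strand), the main signalling receptor for VEGFA, was at 1.53, 1.39 and 1.64 FPKM in 231-BR cells and at 0.48, 0.63 and 0.46 FPKM in MDA-MB-231 cells. The lines did not overlap. The means of 1.52 ± 0.125 and 0.523 ± 0.0929 FPKM (SD, n = 3) differed 2.9-fold, and on the log2(FPKM + 0.1) scale the fold change was 1.39 (SE 0.13, 95% interval 1.09 to 1.68, limma adjusted p = 4.3e-06). KDR failed the DEG criteria only because its mean in MDA-MB-231 cells was under 1 FPKM. The size depends on the pseudocount, and the log2 fold change was 0.73 with a pseudocount of 1.

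FLT1 (gene ID 2321, chr13:28300344-28495145, minus strand) was at 0.46, 0.25 and 0.46 FPKM in 231-BR cells, and MDA-MB-231 replicates 1 and 3 were listed at 0, with replicate 2 at 0.01 FPKM. It was thus seen at a low level in each 231-BR library and was at or next to 0 in each MDA-MB-231 library. The log2 fold change was 2.21 (SE 0.23, 95% interval 1.7 to 2.73, limma adjusted p = 9.2e-06), a size that depends on the pseudocount and runs from 0.47 with a pseudocount of 1 to 4.94 with 0.01. FLT1 stayed higher in 231-BR cells under each alternative in which it was tested. It reached the filter through 231-BR cells alone, which fixed its sign, so neither the p-value nor this agreement is support for the direction. FLT4 (gene ID 2324, chr5:180601506-180649624, minus strand), the receptor for VEGFC, was at 0.1, 0.06 and 0.03 FPKM in 231-BR cells and at 0.06, 0.09 and 0.07 FPKM in MDA-MB-231 cells. It fell below the filter, the lines overlapped, and with no filter its log2 fold change was -0.1 (SE 0.17, limma adjusted p = 0.62). Summed over the 3 receptors, the level was 2.09, 1.7 and 2.13 FPKM in 231-BR cells and 0.54, 0.73 and 0.53 FPKM in MDA-MB-231 cells (exact two-sided permutation test, n = 3 per line, p = 0.1, the smallest possible). Even in 231-BR cells that sum was far below the level of any of VEGFA, VEGFB and VEGFC.

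The promoters of the receptors that rose are shown to set them beside that of ESM1, with capitals for the same motifs, from RefSeq (GRCh38.p14, minus strand, chr13:28495129-28495378 for FLT1 and chr4:55125596-55125845 for KDR).
FLT1 promoter: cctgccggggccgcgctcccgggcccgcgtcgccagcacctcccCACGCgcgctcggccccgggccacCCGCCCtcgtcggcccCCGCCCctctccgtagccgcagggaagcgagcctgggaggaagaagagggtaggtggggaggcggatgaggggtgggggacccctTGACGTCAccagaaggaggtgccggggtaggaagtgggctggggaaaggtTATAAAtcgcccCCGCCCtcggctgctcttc
KDR promoter: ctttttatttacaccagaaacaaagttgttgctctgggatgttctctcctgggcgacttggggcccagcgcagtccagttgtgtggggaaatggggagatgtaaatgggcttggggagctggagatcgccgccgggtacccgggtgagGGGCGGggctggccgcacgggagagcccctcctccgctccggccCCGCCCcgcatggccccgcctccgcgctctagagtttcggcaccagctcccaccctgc
Like the ESM1 window, the FLT1 window holds TATAAA, here 31 bases before the start. It also holds TGACGTCA 81 bases before the start, which 1.65% of all promoters hold, a GCGTG match on the opposite strand at 206 bases and GGGCGG on the opposite strand at 182, 166 and 19 bases. The KDR window holds GGGCGG at 102 bases and, on the opposite strand, at 58 bases, and 42.6% of all promoters hold that motif. Neither receptor window matches the low GC content of the ESM1 window, with 73.2% for FLT1 and 65.2% for KDR. No motif was found in all 3 windows. Promoters of 6 of the 10 genes were matched in the RefSeq table used here, and VEGFA, FLT4, ANGPT1 and ANGPT2 were not among them.

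The angiopoietins were at low levels, and ANGPT1 was higher in 231-BR cells. ANGPT1 (gene ID 284, chr8:107249482-107498055, minus strand), the agonist of TEK, was at 0.91, 0.91 and 0.79 FPKM in 231-BR cells and at 0.16, 0.07 and 0.04 FPKM in MDA-MB-231 cells. The lines did not overlap. The means were 0.87 ± 0.0693 and 0.09 ± 0.0624 FPKM (SD, n = 3), a ratio of 9.67, and the log2 fold change was 2.40 (SE 0.222, 95% interval 1.9 to 2.9, limma adjusted p = 3.7e-06). ANGPT1 reached the filter through 231-BR cells alone, which fixed its sign, so the p-value is not support for the direction. The log2 fold change ranged from 0.78 with a pseudocount of 1 to 3.32 with 0.01. Under the filter at a mean of 1 FPKM neither ANGPT1 nor FLT1 was tested. ANGPT2 (gene ID 285, chr8:6499651-6563409, minus strand), which lies within MCPH1 on the opposite strand, was at 0.02, 0.02 and 0.06 FPKM in 231-BR cells and at 0.02, 0.03 and 0.07 FPKM in MDA-MB-231 cells. The lines overlapped, and with no filter its log2 fold change was -0.07 (SE 0.177, limma adjusted p = 0.76). Antisense transcripts also overlap VEGFA, VEGFC and KDR in GENCODE release 29, and since the sources do not say whether the libraries or the counting kept the strand, reads from either strand cannot be told apart.

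The Tie receptors differed from each other. TEK, the receptor that both angiopoietins bind, was at 0, 0.01 and 0 FPKM in 231-BR cells and at 0.01, 0.02 and 0.01 FPKM in MDA-MB-231 cells. TIE1, an orphan receptor that modulates TEK in endothelium, was at 37.27, 37.7 and 36.25 FPKM in 231-BR cells and at 5.52, 6.06 and 5.97 FPKM in MDA-MB-231 cells. The lines were far apart in TIE1, 6.34-fold in the means, with a log2 fold change of 2.64 (limma adjusted p = 2.3e-11), while TEK was near 0 in both. The co-receptor NRP1 was at 29.4 ± 0.604 FPKM in 231-BR cells and 30.7 ± 0.205 FPKM in the parental line (SD, n = 3), with a log2 difference of -0.06 (limma adjusted p = 0.077). NRP2, a co-receptor for VEGFC, rose to 5.71 ± 0.214 FPKM in 231-BR cells from 3.37 ± 0.0529 FPKM in the parental line (SD, n = 3, log2 fold change 0.74, limma adjusted p = 7.4e-07). Together with VEGFD, PTPRB, ANGPT4 and the angiopoietin-like genes these form a list of 15 partners, of which 6 were tested, 4 rose and 1 fell, ANGPTL2 (log2 fold change -1.13), with 83.3% past the test beside 77.3% of all genes. These calls turn on the scaling. With median-of-ratios scaling all 6 passed, 4 higher and 2 lower, and with quantile normalization 4 passed, 2 higher and 2 lower.

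The order of the 10 levels in FPKM differed between the lines, both at the top and in the place of FLT1 near the bottom. In MDA-MB-231 cells it ran VEGFA, VEGFC, VEGFB, PGF, ESM1 and KDR, then ANGPT1, FLT4 and ANGPT2, whose libraries overlapped, and FLT1 last. In 231-BR cells it ran ESM1, VEGFC, VEGFB, VEGFA, PGF, KDR, ANGPT1 and FLT1, then FLT4 and ANGPT2, whose libraries overlapped. Apart from these, the libraries of neighbours in each order did not overlap. ESM1 was thus the highest of the 10 genes in 231-BR cells and the fifth in MDA-MB-231 cells, and VEGFA went from the first to the fourth place.

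The genes beside them on the chromosomes differed in how they moved. Over the 20 tested genes on either side of ESM1 the median log2 fold change was -0.05, and over those around VEGFA it was 0.06, both near the 0.08 of all genes. It was 0.44 around VEGFC, which itself fell, and 0.24 around PGF. It had the sign of the gene's own log2 fold change around KDR (0.5), FLT1 (0.21), ANGPT1 (0.25) and VEGFB (-0.29). Around ESM1, VEGFA, VEGFC and PGF it had the opposite sign. FLT1 and ANGPT1 reached the filter only through the line in which they were higher, which fixed their own sign. VEGFB and PGF did not pass the test. The medians were not set beside those around other genes, so whether they are unusual was not tested.

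Likeness was measured as the root mean square difference between log2(FPKM + 0.1) values over the 6 libraries, each gene centred on its own mean, among 11123 genes with a mean of at least 1 FPKM. SOCS2, a suppressor of cytokine signalling, was closest to ESM1, at a distance of 0.048. It was at 23.0 ± 0.626 FPKM in 231-BR cells and 1.74 ± 0.156 FPKM in the parental line (SD, n = 3). RTL5 was the third, at a distance of 0.06. The closest genes to VEGFA were RAB31, a small GTPase of vesicle traffic, at 0.05, MPP1 at 0.067 and ADORA2A, an adenosine receptor, at 0.072. RAB31 was at 4.76 ± 0.207 FPKM in 231-BR cells and 20.8 ± 0.756 FPKM in the parental line (SD, n = 3). With 2 groups of 3 libraries, such likeness mostly reflects a similar step between the lines.

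Among the genes that set VEGFA levels in many cells, the oxygen sensing list had 10 genes tested, with 5 higher and 4 lower in 231-BR cells and a median log2 fold change of 0.06. The share past the test was 90.0%, beside 77.3% of all genes. HIF1A, the oxygen-regulated subunit of hypoxia-inducible factor 1, fell to 48.2 ± 0.848 FPKM in 231-BR cells from 92.9 ± 2.48 FPKM in the parental line (SD, n = 3, log2 fold change -0.94, limma adjusted p = 9e-10). EPAS1, which encodes HIF-2 alpha, rose slightly, by a log2 fold change of 0.23 (limma adjusted p = 0.0052), and CITED2, an inhibitor of HIF-1 transactivation, rose from 36.4 ± 0.524 to 142 ± 3.29 FPKM (SD, n = 3, log2 fold change 1.96, limma adjusted p = 7.7e-12). ARNT2, a partner of the HIF alpha subunits, had a log2 fold change of 1.35. Of 27 tested targets of hypoxia-inducible factors, other than the genes above, 13 rose and 11 fell, with a median of 0.07 and 88.9% past the test, beside 0.08 and 77.3% over all genes. MXI1 (1.76), LOX (1.63) and CA12 (1.12) rose and DDIT4 (-1.13) fell, in log2 fold change.

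The cascade below the VEGF receptors had 47 genes tested, of which 76.6% passed the test, near the 77.3% of all genes, 21 higher and 15 lower, with a median log2 fold change of 0.06. SH2D2A, an adaptor that binds KDR, was lower in 231-BR cells (log2 fold change -3.34), as was the p38 kinase MAPK13 (-3.14). PTGS2, which makes prostaglandins, was higher (2.34). Of 22 tested genes for binding partners of endocan and for the enzymes that build its glycan chain, 11 rose and 4 fell, with a median of 0.16 and 68.2% past the test, below the share of all genes. ICAM1, whose receptor LFA-1 is bound by endocan, fell (log2 fold change -3.2), and DSEL, related to dermatan sulfate epimerase, rose (1.14). Of 13 tested genes known from endothelial tip cells, the cells that secrete endocan in growing vessels, 8 rose and 4 fell, with a median of 0.67 and 92.3% past the test. That median rests on 4 genes that reached the filter through 231-BR cells alone, CXCR4, DLL4, UNC5B and KCNE3, the last 3 named after their values were seen. Without them 5 rose, 4 fell and the median was 0.15. LAMA4 (4.57) and MCAM (2.77) rose and COL4A2 (-2.31) fell, in log2 fold change. CXCR4 was at 11.26, 10.77 and 11.38 FPKM in 231-BR cells and at 0, 0.02 and 0.05 FPKM in the parental line, and its log2 fold change of 6.53 depends on the pseudocount. So do the sizes for LAMA4 and PTGS2, with means of 0.263 and 0.197 FPKM in the parental line, and for SH2D2A, with 0.373 FPKM in 231-BR cells.

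Of 15 tested angiogenic factors of other families, 9 rose and 5 fell, with a median log2 fold change of 0.31 and 93.3% past the test. CXCL8, a chemokine that draws endothelial cells and neutrophils, was lower in 231-BR cells (-3.81). PDGFB, which recruits pericytes, was also lower (-3.39), but it reached the filter through MDA-MB-231 cells alone, at 0.06, 0.06 and 0.04 FPKM in 231-BR cells. PDGFD (1.83) and the peptide ligand APLN (1.73) were higher. A list of inhibitors of angiogenesis also held VASH2, named here because its role as an inhibitor is not settled. Of the 10 tested genes in that list, 6 rose, VASH2 among them, and 3 fell, with a median of 0.94 and 90.0% past the test. These shares stand beside 77.3% of all genes tested, 44.4% higher and 32.9% lower, and nothing particular to a list is read from them. TIMP3, which blocks binding of VEGFA to KDR, rose to 113.06, 111.52 and 114.23 FPKM in 231-BR cells from 0.45, 0.42 and 0.27 FPKM in the parental line (log2 fold change 7.9, limma adjusted p = 1.8e-11). SERPINF1 (3.44) and ADAMTS1 (2.3) also rose, and COL18A1, the source of endostatin, fell (-3.07). The sizes for TIMP3 and SERPINF1 depend on the pseudocount, since their means in the parental line were 0.38 and 0.393 FPKM.

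**Figure D4:**
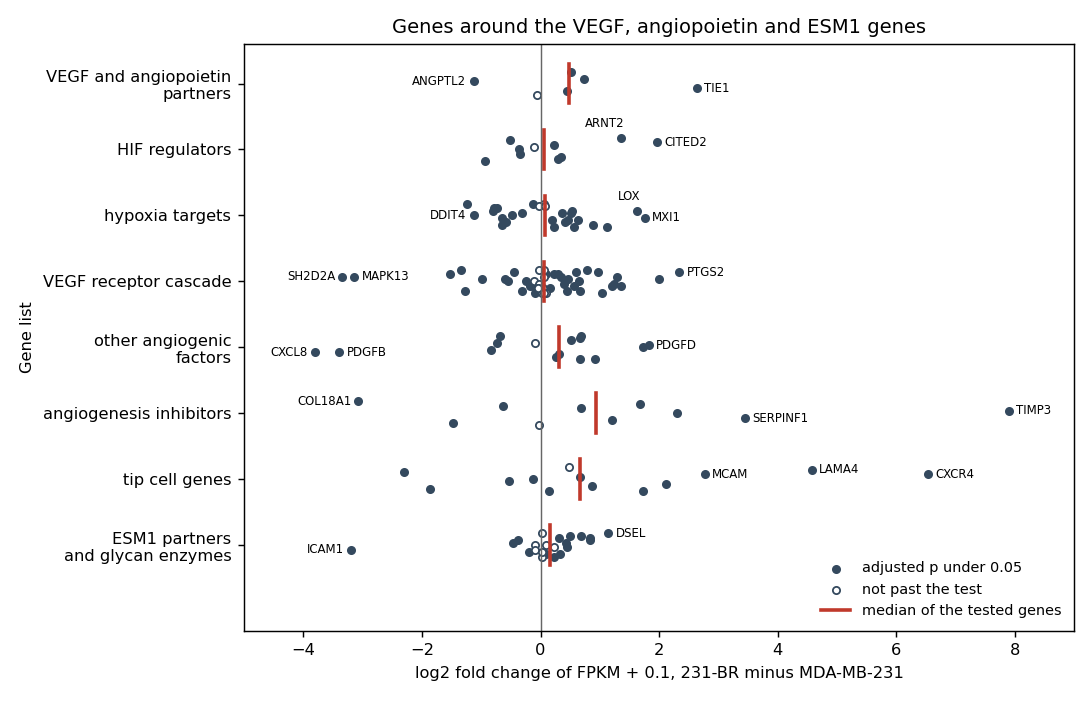
Log2 fold change of FPKM + 0.1 (231-BR minus MDA-MB-231) of each tested gene in 8 lists around the 10 genes, where filled points passed the test, open points did not, red bars are list medians, names mark up to 3 genes of a list and height within a row has no meaning. The HIF regulators, hypoxia targets and receptor cascade are centred near 0 with medians of 0.06 to 0.07, and TIMP3 (7.9) and CXCR4 (6.53) lie farthest to the right.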

How the data were processed

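RNA was extracted with TRIzol and poly(A) mRNA was sequenced as paired 100-base reads on a BGISEQ-500. The authors filtered the reads and deposited FPKM values per gene with 2 decimals. The submitters' processing notes name HISAT2 2.0.4, Bowtie2 2.2.5 and GRCh38.p12. The program that computed FPKM, the annotation release and the strandedness are not given in the sources used here. Read counts were not used, so a count test was replaced by a test on the log scale.

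Libraries were grouped by sample title. In R 4.3.3 with limma 3.58.1, a linear model of log2(FPKM + 0.1) with the line as its 1 term (lmFit, eBayes with trend) was run on the 13465 genes that reached a mean of 0.1 FPKM, with p-values adjusted by Benjamini-Hochberg over all of them, and the script was tested on simulated data. Single values per library were compared by exact two-sided permutation tests. Tables, tests and figures were made with Python 3.11.15, pandas 2.3.3, scipy 1.17.1 and matplotlib 3.10.9. A spreadsheet had turned 25 symbols into dates, and these were restored by gene identifier. The 10 genes and the lists were chosen with earlier results of these data known. All 10 genes were named, and, in each list, up to 4 with the largest change among those past the test that differed by more than 1 on the log2 scale and reached a mean of 1 FPKM in either line, plus NRP1, NRP2, TEK, TIE1, HIF1A and EPAS1, the 3 genes most like ESM1 and VEGFA, and the cell type markers. Some single results are not reported here. Gene positions came from GENCODE release 29, and promoters from RefSeq on GRCh38.p14.

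Alternatives were pseudocounts of 1 and 0.01, no filter, a filter at a mean of 1 FPKM, 3 other scalings, eBayes without the trend, a replicate block, each library left out, and other DEG thresholds.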

Additional observations from a re-analysis of the deposited data

How the results depend on the processing

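ESM1 and KDR stayed higher, and VEGFA and VEGFC lower, with an adjusted p under 0.05 by limma, in all 15 alternatives. FLT1 and ANGPT1 also passed the test as higher in 14, and could not be tested under the filter at a mean of 1 FPKM. In the main fit both reached the filter through 231-BR cells alone, which fixed their sign, so this agreement is not separate support for it. VEGFB and PGF passed the test under median-of-ratios scaling (-0.16 and -0.21) and quantile normalization (-0.16 and -0.28). With each library left out in turn, VEGFB ranged from -0.11 to -0.06 and PGF from -0.19 to -0.09, and the calls changed without MDA-MB-231 replicate 1 for VEGFB and without MDA-MB-231 replicate 2 for PGF. The number of the 10 genes called ranged from 4 under the filter at a mean of 1 FPKM to 8 under those scalings, against 6. The filter at a mean of 1 FPKM left 5 of the angiogenesis inhibitors called, against 9, since fewer were tested. Without the genes that reached the filter through 1 line only, an alternative chosen after seeing the data, 4 of the 10 genes and 9 of the tip cell genes were called, against 6 and 12, and each other list lost at most 1 call. With a mean of at least 1 FPKM in either line, 3 of the genes met the DEG criteria, with KDR added. The replicate numbers share only a number: deviations of same-numbered libraries correlated at 0.08727, -0.0396 and -0.1059, and not every library correlated best with its own number. The replicate block changed no call of the 8 genes: ESM1 was at 3.7 (adjusted p = 1.6e-10), 6 of the 10 genes were called, and 10502 genes in all were called against 10406. The unknown depth limits what can be said of FLT1, FLT4, ANGPT1 and ANGPT2, at under 1 FPKM in every library.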
